A study of Drosophila melanogaster with 12 samples.

Results

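Heads in which glia expressed human TDP-43 (Repo > hTDP-43) were compared with heads that carried the same transgene and no Gal4 driver (hTDP-43 / +), over every fly gene of an RNA-seq count table. The table held 16952 gene rows and 123 transposon families, 17075 rows in all, and 13387 genes and 120 transposon families had enough reads to be tested. Each genotype had 2 libraries, named S05 and S06 for Repo > hTDP-43 and S14 and S15 for hTDP-43 / +, and 2 further libraries came from heads with the transgene in neurons (ELAV > hTDP-43, S11 and S12). Heads were taken from flies aged 8 to 10 days after eclosion. The paper calls the 2 libraries of a genotype independent and biological replicates, and the sources do not say whether they came from separate crosses. The p-values measure only the spread between these libraries. All lines had been backcrossed to the w1118 (isoCJ1) strain. Repo-Gal4 drives expression in nearly all glia and ELAV-Gal4 in nearly all neurons. The controls lack a driver, and no RNA-seq library of a driver without the transgene was analysed here, so that an effect of the Repo-Gal4 insertion cannot be told apart from an effect of hTDP-43. The human transgene has no row in the table, and its level was not analysed here.

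TDP-43 is an RNA-binding protein of the nucleus that aggregates in the cytoplasm of neurons and glia in amyotrophic lateral sclerosis. Fly glia wrap neurons and axons, form the blood-brain barrier, take up transmitters, feed neurons and clear debris. Clearance runs through the receptor Draper and the JNK kinase pathway, which also drive the response of glia to injury.

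Against hTDP-43 / +, 3732 genes (27.9% of those tested) passed the test in Repo > hTDP-43 heads, of which 2052 were higher (15.3%) and 1680 lower (12.5%). Genes were tested with the quasi-likelihood F test of edgeR, p-values were adjusted by the Benjamini-Hochberg method with a threshold of 0.05, and every SE is that of a log2 fold change in this fit. A gene is called higher or lower where it passed. Levels are given as CPM, the reads of a gene relative to the TMM-scaled size of its library, with factors over all 6 libraries. The higher genes were mostly genes with few reads, with a median log2 fold change of 1.87, and 572 of them had a mean of at least 10 CPM. The lower genes were mostly well-expressed genes with small changes, with a median log2 fold change of -0.55, and 1489 of them had a mean of at least 10 CPM. Among the 2095 genes with a mean of at least 100 CPM, 30.3% were lower and 6.68% higher, whereas among the 2186 genes below 1 CPM, 1.24% were lower and 19.9% higher.

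**Figure D1:**
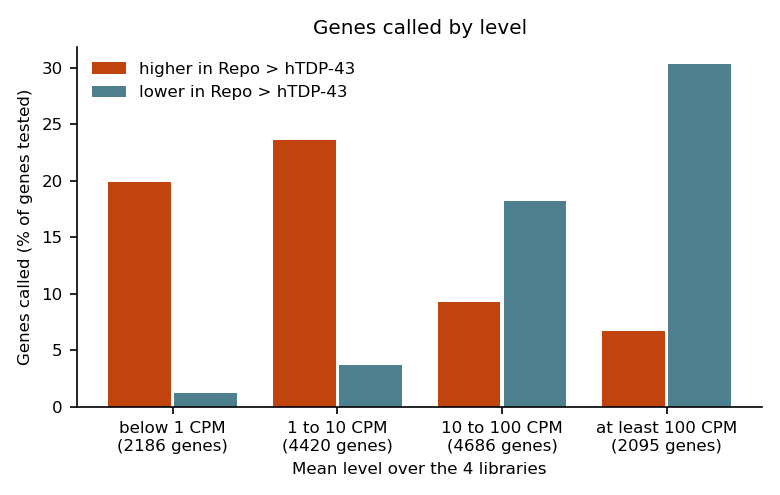
Share of tested genes called higher (orange) or lower (blue) in Repo > hTDP-43 against hTDP-43 / +, in percent, by the mean level of the gene over the 4 libraries. The share of higher genes is 19.9% below 1 CPM and 6.68% at 100 CPM or more, while the share of lower genes goes from 1.24% to 30.3%.

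The number of genes that passed rested on single libraries. It was 546 without S05, 1012 without S06, 6368 without S14 and 4326 without S15. Of the 3732 genes, 0 changed direction under any of these or under another scaling, filter or tool, wherever they could be tested. Scaling to library size alone moved the median log2 fold change of all genes from 0.0035 to 0.17 and called 2605 genes higher and 867 lower (6.48%), so that 75.0% of the calls were higher in place of 55.0%. The total count was 30424206 and 22476024 reads in the Repo > hTDP-43 libraries and 32122780 and 41150009 reads in the hTDP-43 / + libraries. The 2 hTDP-43 / + libraries differed more from each other than the 2 Repo > hTDP-43 libraries did: the chi-square per degree of freedom over genes was 41.4 and 6.61. Both Repo > hTDP-43 libraries lay above or below both hTDP-43 / + libraries for 69.1% of tested genes. The share of lower genes was above that over all genes in the lists of neuronal and fat body genes, and the share of higher genes was above it in the lists of engulfment, hemocyte and chemoreceptor genes.

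**Figure D2:**
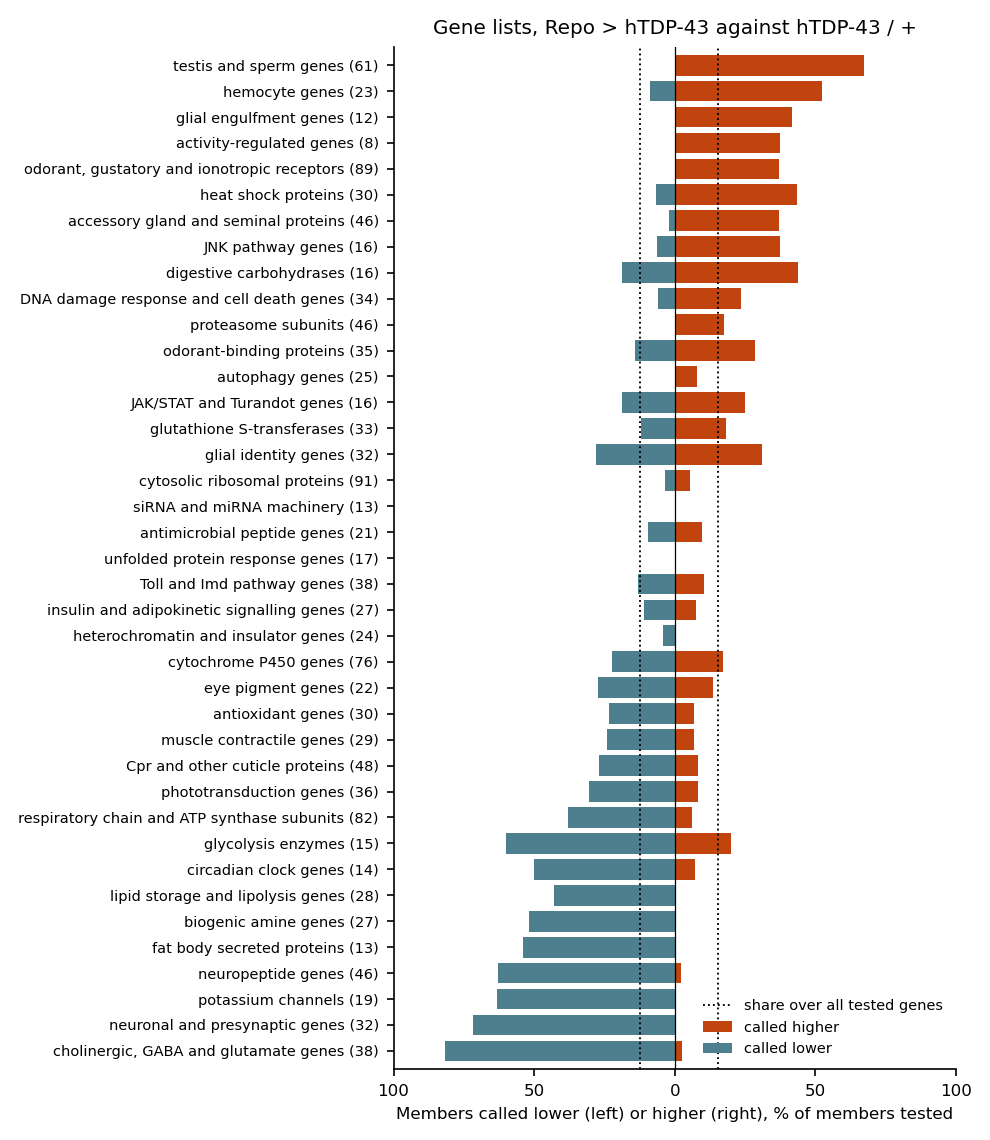
Share of the tested members of each gene list called higher (right) or lower (left) in Repo > hTDP-43 against hTDP-43 / +, in percent, with the number of members tested in brackets and the share over all tested genes as dotted lines (15.3% higher, 12.5% lower). Lists of neuronal genes lie at the bottom, with up to 31 of 38 members lower, and testis genes at the top with 41 of 61 higher.

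Genes of synapses and neuronal excitability were lower in Repo > hTDP-43 heads, by a modest and even amount. Of 32 neuronal and presynaptic genes, 23 were lower and 0 higher, and their median log2 fold change was -0.44 against 0.0035 over all tested genes. Well-expressed genes were lower in general. Over all tested genes with a mean of at least 100 CPM, the median was -0.20, with 30.3% lower. Snap25, a SNARE protein of vesicle fusion, stood at 202 and 207 CPM in Repo > hTDP-43 and 347 and 331 CPM in hTDP-43 / +, and at 331 and 331 CPM in ELAV > hTDP-43. The log2 fold change was -0.71, with an SE of 0.077 and an adjusted p = 0.00282. The calcium sensor Frq2 fell by 0.80 on the log2 scale, the vesicle GTPase Rab3 by 0.65, the vesicle protein Syn by 0.60, the calcium sensor of release Syt1 by 0.57 and the active zone protein brp by 0.40. For each of these 6 genes both Repo > hTDP-43 libraries lay below all 4 others. The share of all genes separated in this way was not counted, and 69.1% of tested genes were separated from the hTDP-43 / + libraries alone. The pan-neuronal RNA-binding gene elav stood at 413 and 425 CPM against 499 and 532 CPM, and its log2 fold change of -0.29 missed the threshold (adjusted p = 0.0503). DESeq2, the fit of all 6 libraries, the fit without a filter and the fit with factors from genes only put elav past it.

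Of 19 potassium channel genes, 12 were lower and 0 higher. Irk3, an inward rectifier, stood at 3.73 and 4.96 CPM against 13.8 and 13.6 CPM (log2 fold change -1.65, SE 0.18, adjusted p = 0.00311). Irk3 is also in the list of Malpighian tubule genes, where it was the only called member of 7, so that its decrease is not particular to neuronal genes. The leak channel Ork1 fell by 0.75, and the subunit qvr, which regulates Shaker channels and sleep, fell by 0.68. The cell surface genes of the dpr family, immunoglobulin proteins that label synaptic partners, gave the highest share of lower genes among the 75 gene families of at least 8 tested members that were formed from symbols alone: 17 of 21 were lower (81.0%), 0 higher, and all 21 log2 fold changes were negative with a median of -0.49. With library size scaling 10 of the 21 were lower. dpr8 fell by 0.73, from 108 and 127 CPM to 71.1 and 70.1 CPM.

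Genes of fast transmission followed the same course. Of 38 tested genes for acetylcholine, GABA and glutamate signalling, 31 were lower and 1 higher. Gad1, the enzyme that makes GABA, stood at 303 and 329 CPM against 551 and 521 CPM (log2 fold change -0.75, SE 0.086, adjusted p = 0.00346). The vesicular glutamate transporter VGlut fell by 0.76, the acetylcholine-making enzyme ChAT by 0.52 and the GABA receptor subunit Rdl by 0.58. The glutamate receptor subunit GluRIIA, known from the neuromuscular junction, had the largest decrease of those with a mean of at least 5 CPM, to 4.21 and 4.96 CPM from 12.1 and 10.5 CPM. The exception, the acetylcholine receptor subunit nAChRbeta3, rose to 12.2 and 11.7 CPM from 6.88 and 6.93 CPM, but it overlaps Ets21C in the genome, which rose as well, and strand was not stated for the counts.

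Of 27 genes for dopamine, serotonin, octopamine and tyramine, 14 were lower and 0 higher. Vmat, which loads amines into vesicles in neurons and also in perineurial glia, fell to 240 and 258 CPM from 462 and 481 CPM (log2 fold change -0.91, SE 0.086, adjusted p = 0.00176). The dopamine receptor Dop1R1 fell by 0.77, the decarboxylase Ddc fell by 0.69 and tyrosine hydroxylase, ple, fell by 0.47. Pu, the first enzyme of pterin synthesis, which serves both amine synthesis and eye pigment, fell by 1.66, and was also lower in ELAV > hTDP-43 at 141 and 141 CPM against 221 and 248 CPM.

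These 4 lists kept their direction but not their counts. Scaling to library size alone left 12 of 32, 5 of 19, 21 of 38 and 11 of 27 genes lower, in the order of the paragraphs above. Without S05 the counts were 0, 1, 0 and 3, and without S06 they were 1, 2, 2 and 5, while the list medians of these 2 fits lay between -0.35 and -0.50. Against ELAV > hTDP-43, which also has a driver and the transgene, 22 of 32, 12 of 19, 28 of 38 and 18 of 27 members were lower in Repo > hTDP-43. Over all tested genes this comparison called 13.4% lower. It used the same S05 and S06 libraries, so that it is not independent of the comparison with hTDP-43 / +. Summed over the 32 neuronal genes, the level was 21190 and 22360 CPM in Repo > hTDP-43, 28200 and 30910 CPM in hTDP-43 / + and 28490 and 27940 CPM in ELAV > hTDP-43. In whole heads, fewer cells of a type and less RNA per cell cannot be told apart.

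Neuropeptide genes showed a deeper decrease than the other neuronal lists. Of 46 tested genes for neuropeptides and their processing enzymes, 29 were lower and 1 higher, with a median log2 fold change of -0.96. Library size scaling left 26 lower, and 15 and 19 were still lower without S05 and without S06. Ilp5, an insulin-like peptide of median neurosecretory cells, stood at 1.0 and 0.75 CPM in Repo > hTDP-43, 5.86 and 8.56 CPM in hTDP-43 / + and 10.1 and 10.2 CPM in ELAV > hTDP-43 (log2 fold change -3.01, SE 0.31, adjusted p = 0.00246). Ilp2, from the same cells, stood at 20.4 and 23.8 CPM against 53.8 and 49.95 CPM. Both Repo > hTDP-43 libraries lay below all 4 others for each of these peptides, a separation whose share over all genes was not counted.

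Mip, the allatostatin B gene, fell by 1.84, from 36.6 and 44.6 CPM to 12.3 and 10.2 CPM. CCHa2, a nutrient-dependent peptide of fat body and gut that acts on the insulin-producing cells, stood at 64.6 and 62.99 CPM against 159 and 233 CPM. Pdf, the output peptide of the clock neurons, stood at 7.79 and 5.63 CPM against 17.9 and 23.2 CPM. Ms, AstA, AstC, Dh31 and Tk fell by 1.33, 1.33, 1.17, 1.10 and 0.98, and Pal2, an enzyme of peptide amidation, fell by 1.29. All of these passed in every alternative, with either Repo > hTDP-43 library left out as well. Not every peptide was lower: ITP, an ion transport peptide, stood at 113 and 116 CPM against 93.0 and 125 CPM, and Capa rose by 0.40, a call that was lost with DESeq2, without S05 and without S06 (30.8 and 35.4 CPM against 27.1 and 23.5 CPM).

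**Figure D3:**
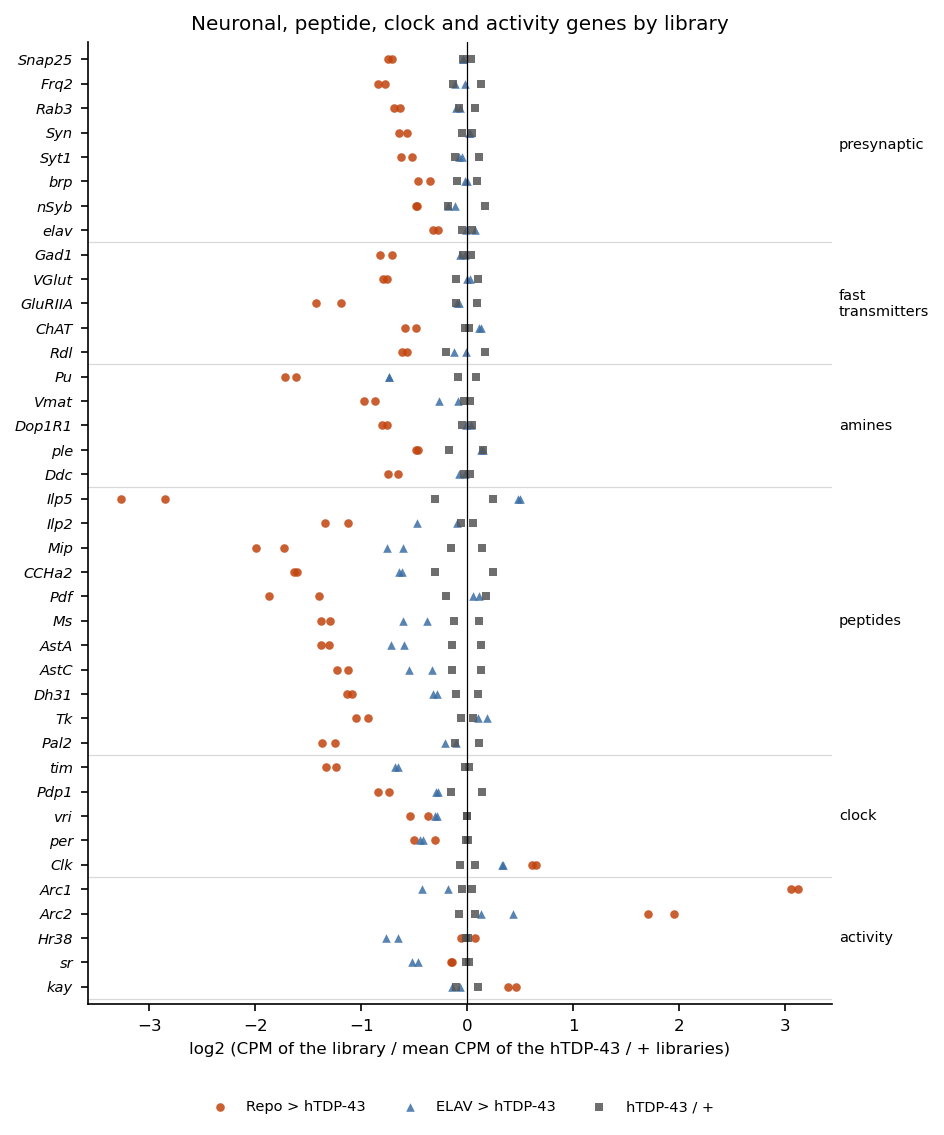
Level of neuronal, peptide, clock and activity-regulated genes in each of the 6 libraries, as the log2 ratio to the mean of the 2 hTDP-43 / + libraries. The Repo > hTDP-43 libraries (circles) lie left of both hTDP-43 / + libraries (squares) for all presynaptic, transmitter, amine and peptide genes shown, and Arc1 lies about 3.10 to the right, while the ELAV > hTDP-43 libraries (triangles) lie between or near the controls for most genes.

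Of 14 circadian clock genes, 7 were lower and 1 higher. The clock runs on a loop in which Clk activates per and tim, whose proteins then repress it, with vri and Pdp1 in a second loop. tim stood at 603 and 642 CPM in Repo > hTDP-43, 1499 and 1537 CPM in hTDP-43 / + and 966 and 947 CPM in ELAV > hTDP-43, and its log2 fold change against hTDP-43 / + was -1.27 (SE 0.090, adjusted p = 0.000686). Pdp1, vri and per fell by 0.78, 0.44 and 0.39. Clk, which peaks when per and tim are low, rose by 0.64, from 39.3 and 43.3 CPM to 64.6 and 62.9 CPM. The time of day at which heads were collected is not given in the sources used here, and its part in these values was not tested. The calls on per, Pdp1, vri and Clk were lost without S05 and without S06, and the call on per also with library size scaling, while tim and to passed in every alternative. to, a clock output gene of the fat body and sense organs, stood at 153 and 132 CPM against 344 and 383 CPM.

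Arc1, which encodes a Gag-like capsid protein that carries its own mRNA between cells and is induced by neuronal activity, had 4243 and 4433 CPM in Repo > hTDP-43, 493 and 527 CPM in hTDP-43 / + and 380 and 452 CPM in ELAV > hTDP-43. The log2 fold change was 3.10, with an SE of 0.11 and an adjusted p = 0.000149, and the call held in every alternative. Its neighbour and paralog Arc2, at far fewer counts, rose by 1.84. The other immediate early genes did not share the size of this change. Hr38 stood at 147 and 134 CPM against 141 and 139 CPM and sr at 82.1 and 81.7 CPM against 89.7 and 91.6 CPM, neither of which passed, and kay, the fly Fos, rose by 0.43. Of the 8 activity-regulated genes tested, 3 were higher and 0 lower.

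Genes that define glia moved in both directions. Of 32 glial identity genes, 10 were higher and 9 lower, both shares above those over all genes. No list separated the classes of glia, and no test compared them. Mdr65, an efflux transporter of the blood-brain barrier, rose to 186 and 195 CPM from 47.9 and 43.3 CPM (log2 fold change 2.08, SE 0.088, adjusted p = 0.000277), and stood at 78.1 and 78.3 CPM in ELAV > hTDP-43. Ncc69, an ion cotransporter of glia, rose by 1.40, Gli, a septate junction protein, by 1.33, and moody, a receptor of the barrier, by 0.70. pnt, a transcription factor of glial development, and e, the enzyme that joins beta-alanine to histamine and dopamine in glia, rose by 1.24 and 1.26.

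Among the lower genes, wrapper, a surface protein of midline and wrapping glia, had 5.36 and 6.30 CPM in Repo > hTDP-43, 31.2 and 28.1 CPM in hTDP-43 / + and 32.2 and 34.3 CPM in ELAV > hTDP-43 (log2 fold change -2.34, SE 0.13, adjusted p = 0.000375). nrv2, a sodium pump subunit used as a marker of cortex and ensheathing glia, stood at 143 and 148 CPM against 265 and 309 CPM. axo and Tret1-1, a trehalose transporter of the surface glia that form the barrier, fell by 0.79 and 0.80, and the gap junction genes ogre and Inx2 by 0.79 and 0.52. The glutamate transporter Eaat1 of astrocyte-like glia fell by 0.40, a call that library size scaling did not make, while Gs2, which makes glutamine in the same cells, stood at 814 and 768 CPM against 744 and 1021 CPM, and alrm, the marker of these cells, at 36.2 and 37.6 CPM against 43.5 and 33.1 CPM. Neither Gs2 nor alrm passed. repo itself, whose promoter region drives the Gal4, had 107 and 104.5 CPM against 81.4 and 71.8 CPM and rose by 0.48, which was not called with either Repo > hTDP-43 library left out. Without S05 6 of the 32 genes were higher and 3 lower, and without S06 7 and 6, and Mdr65, Ncc69, Gli, e, pnt, wrapper and nrv2 were called in both.

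Of 12 engulfment genes, 5 were higher and 0 lower (4 and 0 without S05 and also without S06), and 7 did not pass. drpr, the Draper receptor for dying neurons and axon debris, stood at 247 and 244 CPM against 130 and 134 CPM (log2 fold change 0.91, SE 0.079, adjusted p = 0.00142). Mmp1, a matrix metalloproteinase that glia induce after axon injury, rose to 192 and 196 CPM from 52.6 and 56.7 CPM, with 45.1 and 53.5 CPM in ELAV > hTDP-43. The GTPase Rac2 rose by 1.07 and its activator mbc by 0.82. The Draper adaptor genes did not pass.

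Of 16 JNK pathway genes, 6 were higher and 1 lower, and 9 did not pass. Ets21C, a transcription factor that acts with Fos downstream of JNK, stood at 23.1 and 22.8 CPM in Repo > hTDP-43, 2.43 and 2.70 CPM in hTDP-43 / + and 2.58 and 2.79 CPM in ELAV > hTDP-43 (log2 fold change 3.17, SE 0.14, adjusted p = 0.000277). Gadd45 rose by 1.84, egr, the fly TNF ligand upstream of JNK, by 1.11, and the phosphatase puc, which JNK induces and which limits it, by 0.63. The kinase gene itself, bsk, fell by 0.40, from 95.3 and 94.7 CPM to 68.6 and 74.4 CPM, a call that library size scaling did not make. Mmp1, Rac2, mbc, drpr, Ets21C, Gadd45 and egr passed in every alternative, and puc did not without S05 or without S06.

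The laminin genes of the basement membrane rose. LanA, the laminin alpha chain, stood at 314 and 315 CPM in Repo > hTDP-43, 64.2 and 58.0 CPM in hTDP-43 / + and 67.0 and 70.5 CPM in ELAV > hTDP-43 (log2 fold change 2.38, SE 0.087, adjusted p = 0.000149). The other laminin chains LanB1 and LanB2 rose by 1.54 and 1.13, the collagen-binding protein SPARC by 1.35, and papilin, Ppn, by 1.30. Collagen IV changed less: its alpha-1 chain Cg25C rose by 0.59, and vkg, the alpha-2 chain, stood at 142 and 165 CPM against 132 and 125 CPM and did not pass.

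These genes are made by fat body, glia and hemocytes, the blood cells of the fly, and they are part of the list of hemocyte genes. Of 23 tested genes of that list, 12 were higher and 2 lower, with 7 higher without S05 and 6 without S06. Hml, a clotting protein of plasmatocytes, stood at 440 and 504 CPM against 252 and 198 CPM, and the phagocytosis receptors NimC1 and eater rose by 1.14 and 1.06. The GATA factor srp of blood cells and fat body and the crystal cell gene PPO2 fell by 0.36 and 0.41, and PPO1 stood at 7.70 and 8.30 CPM against 9.76 and 8.27 CPM. Summed over the list, the level was 2855 and 3119 CPM in Repo > hTDP-43, 1769 and 1597 CPM in hTDP-43 / + and 1755 and 1730 CPM in ELAV > hTDP-43. The part of hemocyte number in the rise of the laminins was not tested. LanA, LanB1, LanB2, SPARC, Ppn and Hml passed in every alternative, and NimC1 did not without S06 and eater not without S05 or S06.

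**Figure D4:**
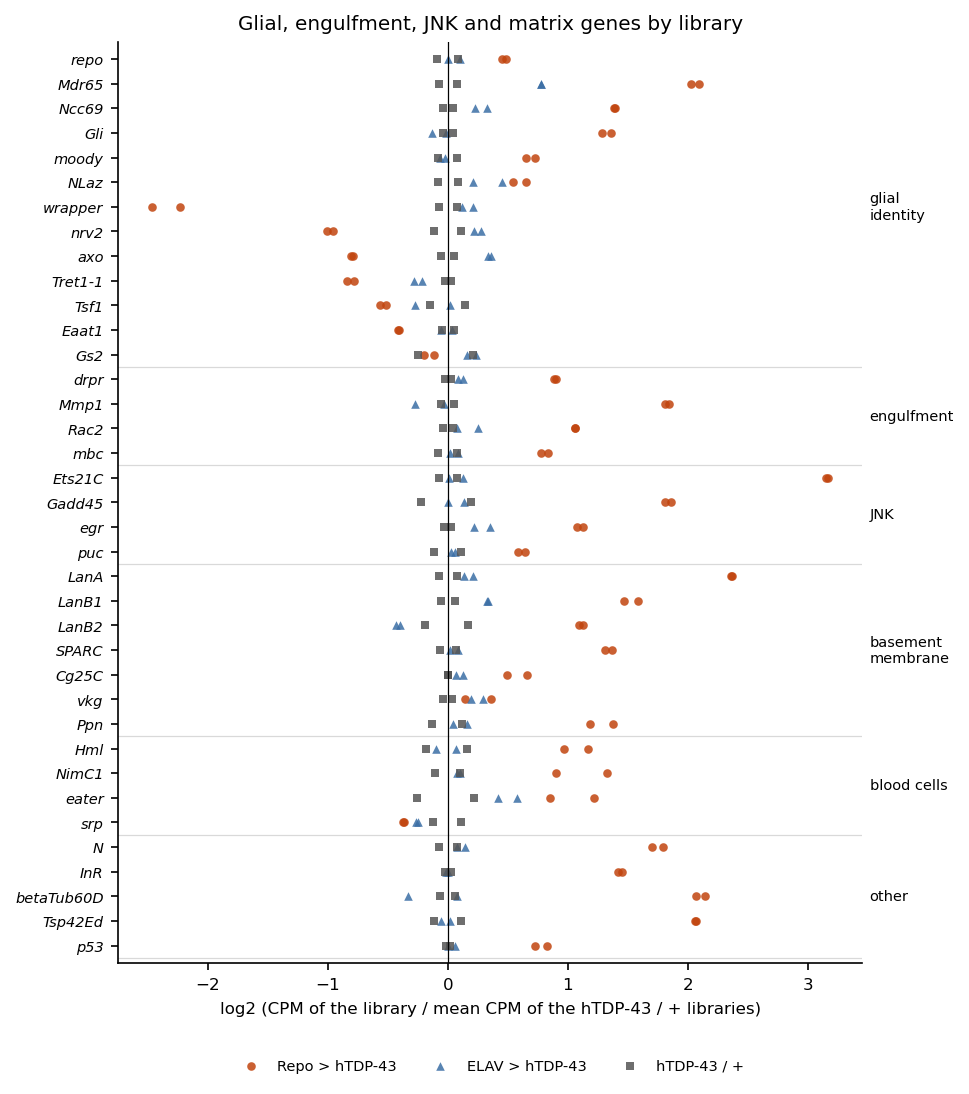
Level of glial, engulfment, JNK pathway, basement membrane and blood cell genes, and of N, InR, betaTub60D, Tsp42Ed and p53, in each of the 6 libraries, as the log2 ratio to the mean of the 2 hTDP-43 / + libraries. LanA, Ets21C and Mdr65 lie 2.08 to 3.17 to the right in both Repo > hTDP-43 libraries, and wrapper lies about 2.34 to the left.

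Several receptors and cytoskeletal genes changed to a similar degree. N, the Notch receptor, stood at 401 and 427 CPM in Repo > hTDP-43, 130 and 117 CPM in hTDP-43 / + and 130 and 136 CPM in ELAV > hTDP-43 (log2 fold change 1.76, SE 0.089, adjusted p = 0.000326), and 3 of 14 Notch pathway genes were higher. InR, the insulin receptor, stood at 450 and 459 CPM against 166 and 171 CPM, with 169 and 167 CPM in ELAV > hTDP-43 (log2 fold change 1.44, SE 0.080, adjusted p = 0.000375). Of the 27 genes of insulin and adipokinetic hormone signalling, 2 were higher, InR and S6k, and 3 lower, the ligands Ilp5 and Ilp2 and the receptor AkhR.

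betaTub60D, a beta-tubulin of developing muscle and of some neurons and glia, rose to 77.4 and 73.7 CPM from 16.8 and 18.3 CPM. The tetraspanin Tsp42Ed rose to 50.9 and 51.2 CPM from 11.3 and 13.2 CPM. Of 34 tetraspanins in all, 6 were higher and 6 lower (17.6% each, against 15.3% and 12.5% over all tested genes). Idgf3, a secreted growth factor related to chitinases, rose by 1.33 and the chitinase Cht2 by 3.29. N, InR, betaTub60D, Tsp42Ed, Idgf3 and Cht2 passed in every alternative.

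Of 34 DNA damage response and cell death genes, 8 were higher and 2 lower (23.5% and 5.88%, against 15.3% and 12.5% over all tested genes). Among all tested genes at 1 to 10 CPM, 23.6% were higher. mre11, a nuclease at double-strand breaks, stood at 22.8 and 23.9 CPM in Repo > hTDP-43, 8.06 and 6.78 CPM in hTDP-43 / + and 14.8 and 17.7 CPM in ELAV > hTDP-43 (log2 fold change 1.67, SE 0.13, adjusted p = 0.00103). Its partner rad50 and the Ku subunits Ku80 and Irbp, which bind broken ends, rose by 0.66, 1.20 and 0.80. p53 rose by 0.79, from 7.33 and 7.51 CPM to 12.2 and 13.2 CPM. The cell death gene rpr stood at 3.73 and 3.295 CPM against 1.06 and 2.17 CPM and did not pass (adjusted p = 0.0740), but passed with library size scaling. The death inhibitor Diap1 rose by 0.44, and the checkpoint kinase gene grp fell by 0.40, a call that library size scaling did not make. Without S05 2 of the list were higher and without S06 3, mre11 among them in both.

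Stress genes did not move as one. Of 30 heat shock and related chaperone genes, 13 were higher and 2 lower, 1 and 3 higher without S05 and without S06. The abundant constitutive chaperones did not pass: Hsc70-4 had 1878 and 1887 CPM against 1855 and 1884 CPM, and Hsp83 had 1032 and 1025 CPM against 1080 and 961 CPM. Small heat shock proteins had few reads, with Hsp26 at 11.1 and 9.59 CPM against 5.95 and 4.40 CPM and Hsp23 at 17.5 and 15.7 CPM against 12.5 and 8.90 CPM. Hsp22 and Hsp67Bb had nearly the same values in every library, as shared reads would give, and are 2 of the 13. The Hsp70 copies Hsp70Aa, Hsp70Ab, Hsp70Ba and Hsp70Bb, which may also share reads, are among the 13 as well. Among the larger changes were those of Hsp60B and Hsp60C, paralogs that act in the male germ line, at 20.3 and 10.3 CPM against 3.903 and 1.67 CPM and at 24.2 and 16.7 CPM against 5.86 and 2.67 CPM. Of 17 genes of the unfolded protein response, 0 passed in either direction (3 at an unadjusted p under 0.05, 1 with DESeq2), with the chaperone Hsc70-3 at 443 and 416 CPM against 432 and 482 CPM.

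Detoxification genes changed in both directions, although 5 of 9 GstD genes were higher and 1 lower. GstE4 and GstD5, glutathione S-transferases, rose by 3.52 and 4.79, to 10.6 and 8.26 CPM from 0.992 and 0.680 CPM and to 6.79 and 6.22 CPM from 0.352 and 0.131 CPM, while GstD1, an enzyme of the same cluster as GstD5, stood at 167 and 149 CPM against 115 and 156 CPM. In all, 6 of 33 glutathione S-transferases were higher and 4 lower (18.2% and 12.1%), near the 15.3% and 12.5% over all tested genes. Of 76 cytochrome P450 genes, 13 were higher and 17 lower. Cyp4s3 fell by 4.01, from 19.3 and 16.1 CPM to 0.636 and 1.63 CPM. Cyp6a17 rose by 1.60, from 12.6 and 10.8 CPM to 35.8 and 34.5 CPM, and stood at 34.1 and 35.7 CPM in ELAV > hTDP-43. Of 30 antioxidant genes, 7 were lower, among them Sod3 and the mitochondrial peroxidase Prx3, and 2 higher.

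Lower genes were frequent among fat body and lipid genes. Of 13 tested genes for proteins that the fat body secretes, 7 were lower and 0 higher, with a median log2 fold change of -0.61. Lsp1beta, a storage protein, stood at 31.2 and 27.1 CPM in Repo > hTDP-43, 139 and 144 CPM in hTDP-43 / + and 121 and 137 CPM in ELAV > hTDP-43 (log2 fold change -2.27, SE 0.10, adjusted p = 0.000277). Lsp2, another larval storage protein, had the largest change of the list and stood at 13.03 and 15.6 CPM in Repo > hTDP-43, 446 and 467 CPM in hTDP-43 / + and 181 and 223 CPM in ELAV > hTDP-43, and its log2 fold change of -4.98 held its call in every alternative. Rfabg, the apolipophorin precursor with the most counts of the list, fell to 8792 and 8751 CPM from 13992 and 12949 CPM, and Adh, alcohol dehydrogenase, to 1015 and 947 CPM from 1862 and 2188 CPM. The sum over the list was 10930 and 10790 CPM against 17880 and 17090 CPM, with 13720 and 15710 CPM in ELAV > hTDP-43.

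Of 28 lipid genes, 12 were lower and 0 higher, and 16 did not pass. The lipid droplet protein Lsd-1 fell by 0.84, the lipophorin receptor LpR2 by 0.82, the desaturase Desat1 by 0.67 and the fatty acid synthase FASN1 by 0.59. Desat1 was also lower in ELAV > hTDP-43, at 1488 and 1700 CPM against 2252 and 2233 CPM in hTDP-43 / + and 1398 and 1398 CPM in Repo > hTDP-43. The number of fat body genes called lower was 4 without either Repo > hTDP-43 library, and that of lipid genes 0 without S05 and 2 without S06.

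Sugar metabolism genes were lower at the level of the main enzymes. Of 15 glycolysis enzymes, 9 were lower, by 0.31 to 0.48, among them Tpi, Gapdh1 and Eno, and 3 were higher. Of the higher ones, Pglym87 and CG5432 are minor paralogs at under 6 CPM, and ImpL3, lactate dehydrogenase, rose by 0.92, from 10.2 and 9.55 CPM to 18.3 and 18.9 CPM. Library size scaling left 3 of the 9 lower, and 0 were lower without S05 or without S06. tobi, an alpha-glucosidase whose transcript responds to insulin-like peptides and adipokinetic hormone, stood at 15.1 and 17.02 CPM in Repo > hTDP-43, 108 and 103.6 CPM in hTDP-43 / + and 27.6 and 39.1 CPM in ELAV > hTDP-43. Its log2 fold change was -2.71 (SE 0.098, adjusted p = 0.000149). Other digestive carbohydrases went the other way, with 7 of 16 higher, such as the gut maltase Mal-A1 at 16.8 and 22.1 CPM against 8.96 and 4.89 CPM.

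Of 82 subunits of the respiratory chain and ATP synthase, 31 were lower and 5 higher, the latter testis-type or minor paralogs at under 9 CPM. The decrease was read against controls that differed. The ATP synthase subunit ATPsynC stood at 608 and 575 CPM in Repo > hTDP-43, 826 CPM in S14 and 1114 CPM in S15, and blw, the alpha subunit, at 823 and 861 CPM against 1106 and 997 CPM. The number of lower subunits was 10 with library size scaling, 60 without S14, 56 without S15, and 0 without either Repo > hTDP-43 library. Of 91 cytosolic ribosomal proteins, 3 were lower and 5 higher, and of 73 mitochondrial ribosomal proteins 3 were lower.

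Genes of vision changed in part. Of 36 phototransduction genes, 11 were lower and 3 higher, with 7 and 5 under library size scaling. The lower ones numbered 1 without S05 and 0 without S06. ninaE, the main rhodopsin, stood at 17837 and 18238 CPM against 19066 and 25914 CPM and did not pass (adjusted p = 0.253). ninaA, a chaperone that ninaE needs to leave the endoplasmic reticulum, fell by 0.999, from 45.3 and 58.8 CPM to 28.8 and 22.8 CPM, a call lost without S06. ninaD, a scavenger receptor that brings carotenoids into cells for chromophore synthesis, rose to 23.3 and 29.9 CPM from 0.960 and 1.44 CPM (log2 fold change 4.46, SE 0.24, adjusted p = 0.000375), and stood at 1.98 and 1.80 CPM in ELAV > hTDP-43. Of 22 eye pigment genes, 3 were higher and 6 lower. w, the transporter of pigment precursors, stood at 233 and 244 CPM in Repo > hTDP-43, 2.59 and 2.46 CPM in hTDP-43 / + and 73.6 and 70.4 CPM in ELAV > hTDP-43 (log2 fold change 6.57, SE 0.11, adjusted p = 5.93e-06). kar and cd rose by 0.38 and 0.63. se, an enzyme of the pterin pathway, fell to 6.49 and 5.42 CPM from 28.6 and 33.7 CPM, and was at 11.5 and 12.2 CPM in ELAV > hTDP-43. bw, a pterin transporter, and Hn, which hydroxylates phenylalanine, fell by 0.86 and 0.60. Transgene insertions commonly carry mini-white, a copy of w that affects eye pigment, so that the level of w cannot be told apart from the number of insertions, whose part in the other pigment genes was not tested.

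Immune genes showed no shared direction. Of 21 antimicrobial peptide genes, 2 were higher and 2 lower, and the sum over the list was 371 and 269 CPM in Repo > hTDP-43, 339 CPM in S14 and 1188 CPM in S15. Of 38 Toll and Imd pathway genes, 4 were higher and 5 lower. dl, the NF-kappaB factor of the Toll pathway, rose by 0.76, from 86.9 and 87.8 CPM to 141 and 153 CPM, and Toll-9, a receptor with few reads, stood at 4.12 and 5.01 CPM against 0.160 and 0.209 CPM. In the JAK/STAT pathway the cytokines and the stress targets parted. upd3 and upd2, the cytokines, stood at 3.55 and 4.17 CPM and at 1.52 and 1.84 CPM against under 0.7 CPM in both controls, and Socs36E, a feedback target, rose by 0.62. TotA and TotX, the Turandot stress proteins of the fat body, fell by 1.34 and 2.14, to 50.03 and 52.98 CPM from 121 and 141 CPM and to 10.9 and 11.4 CPM from 44.5 and 54.6 CPM. dl, Toll-9, TotA and TotX passed in every alternative, and upd3, upd2 and Socs36E were not called without S05 or without S06.

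Chemoreceptor genes, which act in the antenna and in taste organs, were higher in part. Of 89 tested odorant, gustatory and ionotropic receptors, 33 were higher (37.1%) and 0 lower and 56 did not pass, with a median log2 fold change of 1.02. Of the 33, 31 were at under 10 CPM, a level at which rises were frequent among all genes. Over all tested genes below 1 CPM, 19.9% were higher, with a median of 0.955. At 1 to 10 CPM 23.6% were higher, with a median of 0.18. Orco, the co-receptor that odorant receptors need, stood at 19.6 and 17.6 CPM in Repo > hTDP-43, 2.14 and 1.60 CPM in hTDP-43 / + and 3.40 and 4.05 CPM in ELAV > hTDP-43 (log2 fold change 3.33, SE 0.19, adjusted p = 0.000375). By symbol, 12 of 30 Or genes, 12 of 30 Gr genes and 8 of 28 Ir genes were higher. The ionotropic co-receptors Ir25a and Ir76b rose by 1.19 and 0.80. Or10a and Gr10a had the same values in each library, as shared reads would give, and count as 2 of the 33. Without S05 8 receptors were higher, and without S06 10.

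Proteins that carry odorants around these neurons divided by gene. Of 35 odorant-binding proteins, 10 were higher and 5 lower. Obp83a, made by support cells of antennal hairs, stood at 43.7 and 36.8 CPM in Repo > hTDP-43, 2.14 and 1.15 CPM in hTDP-43 / + and 1.76 and 3.37 CPM in ELAV > hTDP-43 (log2 fold change 4.65, SE 0.26, adjusted p = 0.000375). Its neighbour Obp83b and the antennal genes a5, a10 and Os-C rose by 4.58, 4.61, 3.93 and 4.01, although reads of Os-C may be shared with Sfp84E, which overlaps it. Obp19a, Obp28a, Obp59a, Obp69a and Obp84a rose by 2.14 to 4.48. Obp99b fell by 0.61, Obp57a fell by 0.78, Obp99c fell by 1.48, Obp44a fell by 1.84 and Obp56e fell by 2.07. The sum over all these proteins was 1112 and 963 CPM in Repo > hTDP-43 and 1180 and 1844 CPM in hTDP-43 / +, while the summed receptors were at 236 and 250 CPM against 147 and 135 CPM, with 155 and 161 CPM in ELAV > hTDP-43. How much antennal tissue each library held was not tested. Of the higher binding proteins, 9 and 10 were still called without S05 and without S06.

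**Figure D5:**
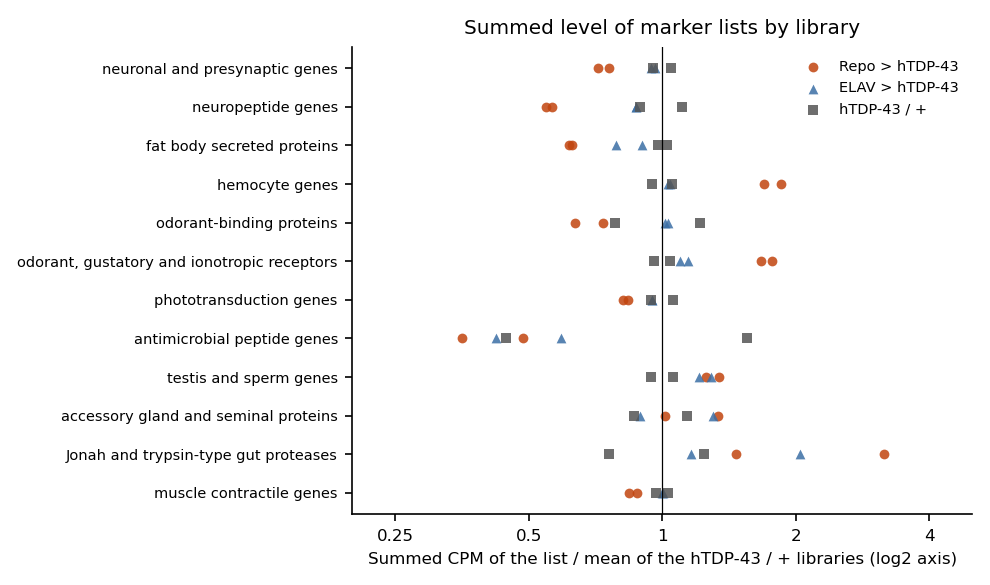
Summed level of 12 marker lists in each library, as a ratio to the mean of the 2 hTDP-43 / + libraries on a log2 axis. In both Repo > hTDP-43 libraries (circles) the neuropeptide and fat body lists lie to the left of all other libraries and the hemocyte and chemoreceptor lists to the right. The testis list is at 2479 and 2311 CPM in Repo > hTDP-43 and at 2375 and 2235 CPM in ELAV > hTDP-43. Much of this sum is mgl, which did not pass, so that the sum does not give the level of sperm genes. The means of mgl were 1127 CPM in Repo > hTDP-43, 963 CPM in hTDP-43 / + and 1108 CPM in ELAV > hTDP-43.

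Genes of male reproductive tissue and gut, which heads should hold only as traces, were also higher in part. Of 61 genes of the testis and sperm list, 41 were higher and 0 lower, with a median log2 fold change of 1.90. The member with the most counts, mgl, was not among the 41. The sperm leucylaminopeptidase S-Lap1 stood at 91.1 and 62.1 CPM in Repo > hTDP-43, 23.7 and 10.9 CPM in hTDP-43 / + and 78.5 and 57.3 CPM in ELAV > hTDP-43. Its paralog S-Lap7 stood at 66.1 and 41.5 CPM, 12.96 and 4.79 CPM, and 26.8 and 11.5 CPM in the same order, and S-Lap8, S-Lap2 and S-Lap3 rose by 2.41 to 2.47 with ELAV > hTDP-43 means of 9.48 to 12.8 CPM. S-Lap7 and these 3 were not called without S05, while S-Lap1 passed in every alternative. Direct comparison with ELAV > hTDP-43 called 15 of 62 testis genes higher and 3 lower, and 10.7% of all tested genes higher. Without S05 6 were higher than in hTDP-43 / +, without S06 28. Of 46 accessory gland and seminal protein genes, 17 were higher and 1 lower, and of 26 gut proteases 6 were higher, with betaTry at 20.5 and 39.5 CPM against 7.33 and 2.70 CPM. The seminal genes higher numbered 1 without S05 and 4 without S06, and the gut proteases 6 and 0. The sex of the flies in these libraries is not given in the sources used here, although the methods say that most flies with glial hTDP-43 that eclose are male. roX1, an RNA of the male dosage compensation complex, stood at 3400 and 3344 CPM in Repo > hTDP-43, 3775 and 4093 CPM in hTDP-43 / + and 3776 and 3480 CPM in ELAV > hTDP-43. Yp1, a yolk protein of females, stood at 4.09 and 2.59 CPM against 3.62 and 2.15 CPM, with 12.5 and 10.7 CPM in ELAV > hTDP-43, and neither gene passed against hTDP-43 / +. Of 4 female-biased markers, 2 were lower and 0 higher: the gene fit fell by 1.04 and Yp3 by 0.31. Library size scaling called 0 of these 4 lower. Of 3 tested Y-linked genes, 2 were higher and 0 lower. Among them kl-5 had means of 1.85 CPM in Repo > hTDP-43, 0.464 CPM in hTDP-43 / + and 0.593 CPM in ELAV > hTDP-43. How much body tissue each library held, and the part of the sex of the flies, was not tested.

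Among the higher members of several housekeeping lists were testis-type or minor paralogs. Of 46 proteasome subunits, 8 were higher and 0 lower, and the 17.4% higher lay near the 15.3% over all tested genes. All 8 stood below 7 CPM in every library, such as Prosalpha3T at 4.79 and 6.42 CPM against 1.22 and 1.47 CPM and Prosbeta4R1 at 3.06 and 2.50 CPM against 0.0960 and 0.0523 CPM. The higher translation factors eIF4E-3, eIF4E-4, eIF4E-5 and eIF4E-7, minor forms of the cap-binding protein, rose by 1.81 to 2.42, and the proton pump subunit Vha68-3 rose by 3.76, from 1.82 and 0.811 CPM to 18.9 and 15.7 CPM. Vha100-2, a pump subunit with more reads, rose by 0.51, from 113 and 89.5 CPM to 147 and 140 CPM, a call lost without S05 and without S06. The direct comparison with ELAV > hTDP-43 called 5 of 47 proteasome genes higher, near the 10.7% that it called higher over all tested genes.

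Groups of RNA silencing and chromatin genes differed in their calls. Of 13 genes of the siRNA and miRNA machinery, 0 passed in either direction with edgeR (2 at an unadjusted p under 0.05, 0 with DESeq2). AGO2, the siRNA effector, stood at 217 and 222 CPM against 212 and 210 CPM, and Dcr-2, which makes siRNAs, at 81.5 and 83.5 CPM against 82.9 and 75.6 CPM. Of 24 heterochromatin and insulator genes, 1 was lower and 0 higher. Of 26 piRNA pathway genes, 8 were higher and 1 lower, at low levels, with piwi at 2.64 and 2.84 CPM against 0.896 and 1.05 CPM, and 1 was higher without S05 and 2 without S06. Of 25 autophagy genes 2 were higher. TBPH, the fly ortholog of TDP-43, stood at 59.9 and 55.7 CPM against 69.8 and 64.4 CPM (log2 fold change -0.20, adjusted p = 0.132).

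Among genes of no list described above, with a mean of at least 10 CPM, the largest rises were those of Jhedup, a juvenile hormone esterase duplication, at 30.9 and 27.1 CPM against 1.25 and 0.759 CPM (log2 fold change 4.88, SE 0.23, adjusted p = 0.000277), and of Cdc6, a replication licensing factor that overlaps Zasp66, at 21.3 and 29.9 CPM against 1.47 and 0.602 CPM. dysf, a transcription factor of tracheal fusion cells, rose by 2.85 to 19.9 and 20.6 CPM. CG16826, CG8565, CG3259, CG34324, CG10663, CG8908 and CG13305 rose by 2.92 to 4.34, and Muc68D, a mucin, stood at 72.7 and 23.8 CPM in Repo > hTDP-43, 7.999 and 2.46 CPM in hTDP-43 / + and 54.4 and 20.8 CPM in ELAV > hTDP-43. Without S05, Muc68D was not called.

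The largest decreases among genes of no list described above, with the same minimum, were those of CG40470, from 55.6 and 52.5 CPM to 2.03 and 1.79 CPM (log2 fold change -4.80, SE 0.12, adjusted p = 3.85e-05), and CG7135, from 38.2 and 39.4 CPM to 2.18 and 2.21 CPM. CG9507 fell by 3.55, CG1552 fell by 2.86, CG3270 fell by 2.82, CG16926 fell by 2.35, CG11854 fell by 2.13, CG7607 fell by 1.76 and Scp2, a calcium-binding protein, fell by 1.81. CG3699 fell by 2.79, from 26.6 and 21.8 CPM to 4.12 and 2.71 CPM, and was also lower in ELAV > hTDP-43, at 4.65 and 6.69 CPM (adjusted p = 0.00677 in the fit of 6 libraries). CG11211, from 139 and 183 CPM to 42.1 and 40.8 CPM, lay between in ELAV > hTDP-43, at 95.8 and 103 CPM.

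The comparison with ELAV > hTDP-43, in which both groups carry a driver and the transgene, asks which levels go with the glial driver. It called 3271 genes (24.1% of 13579), 1458 higher and 1813 lower in Repo > hTDP-43, in a fit of all 6 libraries. In the same fit ELAV > hTDP-43 differed from hTDP-43 / + in 223 genes (1.64%). Both comparisons with hTDP-43 / + share the same controls, and both comparisons of Repo > hTDP-43 share S05 and S06. Arc1 was higher than in ELAV > hTDP-43 by 3.38, Ets21C by 3.10, LanA by 2.20, Mmp1 by 1.98, N by 1.63 and InR by 1.44, and wrapper and Ilp5 differed by -2.52 and -3.51, all 8 past the threshold. Cyp6a17 and per did not pass, with log2 differences of 0.013 (SE 0.0988, adjusted p = 0.936) and 0.035 (SE 0.084, adjusted p = 0.789).

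Transposon families were the smaller part of the table. Of 120 tested, 29 were called (24.2%), 14 higher and 15 lower, and the number was 6 without S05, 6 without S06, 53 without S14 and 50 without S15. Of 60 LTR families, 10 were higher and 5 lower (16.7% and 8.33%), and of 39 LINE families, 3 were higher and 10 lower (7.69% and 25.6%). Over all 120 families, 11.7% were higher and 12.5% lower. Library size scaling called 21 families higher and 2 lower, with 1 of the LINE families lower. 3S18, an LTR element, stood at 686 and 714 CPM in Repo > hTDP-43, 286 and 259 CPM in hTDP-43 / + and 429 and 431 CPM in ELAV > hTDP-43 (log2 fold change 1.38, SE 0.087, adjusted p = 0.00049). HeT-A, a LINE that maintains fly telomeres, stood at 735 and 738 CPM, 313 and 323 CPM, and 812 and 862 CPM in the same order. HMS-Beagle, mdg3 and accord, all LTR elements, rose by 1.13, 1.06 and 0.82. These 5 families passed in every alternative. copia, springer and diver rose by 0.90, 0.58 and 0.68 and G7 rose by 0.84, calls that were lost without S05 and without S06. jockey, a LINE, fell by 0.77, from 1555 and 1460 CPM to 848 and 906 CPM, a call lost without S05. R2-element, a LINE that inserts into ribosomal DNA, stood at 181 and 169 CPM against 356 and 230 CPM, with 332 and 412 CPM in ELAV > hTDP-43, and McClintock, an LTR element, at 157 and 161 CPM against 243 and 214 CPM. Neither R2-element nor McClintock was called without S05 or without S06, and R2-element was not called with library size scaling. Against ELAV > hTDP-43, 23 families were called (19.2%), 12 higher and 11 lower (9.17%).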

How the data were processed

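RNA was taken from whole heads, and libraries were made with the NuGEN Ovation kit and sequenced as pairs on a NextSeq. The deposited values are raw counts per gene and per transposon family: the authors removed ribosomal reads, mapped the rest to dm3 with STAR and counted UCSC RefSeq genes and FlyBase transposons with TEtranscripts, which can share a read that maps to several places among them. Strand use in counting is not given in the sources used here. Library totals were 22476024 to 41150009 counts in the 6 RNA-seq libraries, and 0 sample columns were left unmapped. The small RNA libraries of the series were not used here.

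Counts of the 4 libraries of the main comparison, genes and transposons together, were filtered with filterByExpr, scaled by TMM and tested with the quasi-likelihood F test of edgeR 4.0.16 (limma 3.58.1, R 4.3.3), two-sided, with p-values adjusted by Benjamini-Hochberg over all tested genes and transposons and called at 0.05. The study's own scaling to library size was run as an alternative. The SE is the absolute log2 fold change divided by the square root of F. Comparisons with ELAV > hTDP-43 came from a fit of all 6 libraries. In simulated counts for the main comparison (13253 unchanged or changed features), edgeR recovered 122 of 199 genes changed by 1 on the log2 scale with 2 false calls, and DESeq2 1.42.0 recovered 121 with 3. Other alternatives were DESeq2, upper-quartile factors, TMM factors computed without the transposons, leaving the filter out, at least 10 counts in every library, the 6-library fit, stricter thresholds and each library left out. The fit of the 4 driver libraries alone and the list counts without each library were added after seeing the data.

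The 66 gene lists and the compared groups were chosen with earlier results of these data known, and 7 symbols were dropped from the lists after matching. List symbols that matched no row of the table were also left out. Genes were named by rule: for either direction the 12 called genes of greatest change that had a mean of at least 10 CPM, did not overlap between groups and were in no list described; up to 4 called members per list with the largest change and a mean of at least 5 CPM, beside its most abundant and defining members; TBPH; and transposons that changed by at least 0.5. The rule gave 283 genes and transposons. Which of them the text describes, and the further genes it names, were chosen after their values were seen. For genes that share sequence or overlap in the genome, counts can hold reads of the partner: of 2006 genes looked up in a RefSeq gene table, 1982 were found and 955 overlapped another gene.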

Additional observations from a re-analysis of the deposited data

Results flagged for a closer look

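The direct contrast of the glial with the neuronal driver called 3271 genes in the fit of all 6 libraries (edgeR, adjusted p under 0.05). Among the genes named, 6 were called in opposite directions from the shared hTDP-43 / + libraries in that fit. A difference between the drivers largely follows from this choice and is no separate result. CG32523 differed by -2.66 on the log2 scale (glial minus neuronal driver), with 5.55 and 6.34 CPM under the glial driver, 35.5 and 39.6 CPM under the neuronal driver and 22.9 and 19.97 CPM in the undriven controls. Cyp6t3, a cytochrome P450, differed by 3.25, with 8.79 and 7.34 CPM, 0.651 and 1.07 CPM, and 2.94 and 2.88 CPM in the same order. Mal-A7, a maltase, differed by 4.61, with 7.39 and 6.97 CPM, 0.340 and 0.230 CPM, and 2.66 and 1.13 CPM. The heat shock genes Hsp70Aa and Hsp70Ab, near-identical copies that share reads, differed by 2.11 and 2.01, with Hsp70Aa at 12.9 and 12.2 CPM, 3.03 and 2.75 CPM, and 6.399 and 6.86 CPM. Yp3, a yolk protein of fat body, differed by -0.79, with 29.0 and 29.9 CPM, 48.2 and 53.6 CPM, and 37.1 and 36.3 CPM, and its decrease against hTDP-43 / + was not called by DESeq2 (adjusted p = 0.0703) or with library size scaling (adjusted p = 0.312).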

How the results depend on the processing

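Of the 348 genes and transposons that the rule or the text names and that were called in Repo > hTDP-43 against hTDP-43 / +, 121 were called in the same direction under every alternative run and 288 under every one other than a left-out library. They were called in 298 cases with library size scaling, 306 with upper-quartile factors, 345 with factors from genes only, 339 with DESeq2, 345 without a filter, 322 with at least 10 counts in every library, 345 in the fit of all 6 libraries, 128 without S05, 158 without S06, 347 without S14 and 343 without S15, and 0 were reversed. An adjusted p under 0.01 left 1089 genes (623 higher, 466 lower) and 7 transposon families, and a log2 fold change of at least 1 left 1810 genes (261 lower) and 4 families. Genes called lower numbered 867 with library size scaling and 1059 with upper-quartile factors, against 1680. Leaving out 1 library gave 546 to 6368 genes, 374 to 2901 higher, 172 to 3467 lower, and 6 to 53 transposon families, with the lone library left in a group assumed to vary like the other pair. Against ELAV > hTDP-43, 3038 genes were called with library size scaling, 3289 with DESeq2 and 4627 in the 4 driver libraries alone. With 2 libraries a group, a gene that missed the threshold is not shown to be unchanged, and genes below 1 CPM rest on few reads. No paired analysis was possible because the library names are not shared between the groups. The lack of a driver-only control and of batch labels leaves line and batch effects that cannot be told apart from the driver.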

Other observations

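Gene groups, some of them within the lists above, were also tallied in Repo > hTDP-43 against hTDP-43 / +. Of 17 genes with Mst symbols, given to transcripts of the male germ line and accessory gland, 13 were higher and 0 lower, the highest share among the families formed from symbols. Of 9 GstD glutathione S-transferases, 5 were higher and 1 lower, and of 11 Klp kinesins 5 were higher and 0 lower. Of 13 ND-B subunits of respiratory complex I, 6 were lower and 0 higher, which became 2 with library size scaling. Of 48 tested cuticle proteins, 13 were lower and 4 higher. Of 29 muscle contractile genes, 7 were lower and 2 higher, which became 3 and 2 with library size scaling and 0 and 1 without S05.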
